A study of Mus musculus with 6 samples.

Results

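Wild-type Th17 cultures are the 3 libraries of IL-17A+/+ cells among 6 libraries in the series. They were taken by their column names in the deposited table, and the 3 IL-17A-/- libraries enter no value below. The cells were CD4+CD62L+ T cells of B10.RIII mice, a strain used in autoimmunity models. They were isolated from spleen with a selection kit after red cell lysis. All 3 cultures were kept for 3 days in 1 ng/ml of TGF-β, 10 ng/ml of IL-6 and 10 ng/ml of IL-23. Neutralising anti-IL-4 and anti-IFN-γ were each present at 10 µg/ml. RNA was read as stranded TruSeq mRNA libraries. The series text names them biological replicates, numbered 1 to 3 and called cultures here, and does not say whether each came from 1 animal or a pool. With 1 group there was no contrast, and no test was run.

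Th17 cells are CD4 T helper cells that secrete IL-17A and IL-17F. TGF-β with IL-6 starts the program through STAT3. IL-23 acts later through a receptor made of the products of Il23r and Il12rb1 and sustains the cells. IL-24, a cytokine of the IL-10 family, is known in tissue and tumour biology and is also made by Th17 cells.

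Levels are given in TPM, a length-corrected share of transcripts: estimated counts divided by transcript length and scaled to the same total in each library, over transcripts of at least 300 nt. A gene was called expressed at 1 TPM. The libraries held 47335736 to 48278239 estimated counts, and 1 TPM of a 1000-nt transcript stood for 36.7 to 39.97 counts. Because TPM divides by length, levels of different genes can be set side by side, with 1 limit. The sources used here do not say whether the estimated counts were already adjusted for effective length, and if they were not, levels of short transcripts are understated beside those of long ones. The split of reads among near-identical copies, such as ribosomal protein genes and their pseudogenes, is uncertain.

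The 3 libraries did not hold the same mixture of transcripts, and this touches most results below. Among 11877 genes with a mean of at least 1 TPM, 22.4% had a highest culture more than 2-fold above the lowest, as the ratio of TPM + 0.1. The median ratio was 1.498. Culture 1 held the highest value of 37.3% of these genes, culture 2 of 16.2% and culture 3 of 46.5%. Pearson's r of log2 levels across genes was 0.94 between cultures 1 and 2, 0.93 between 1 and 3, and 0.94 between 2 and 3, where genes are not independent replicates. Culture 1 was high in CD8 T cell, B cell and Th1 genes, culture 2 in S100a8, S100a9 and other myeloid genes, and culture 3 in glycolysis genes. Culture 3 was also high in genes of long transcripts: the third of protein-coding genes with the longest transcripts, from 2980 nt, had a median log2 deviation from the culture mean of 0.25 there and of -0.24 in culture 2.

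In all 3 cultures, 10995 genes reached 1 TPM, of which 10200 were protein-coding, 262 pseudogenes and 172 lincRNA genes. Means of at least 10 TPM were reached by 6963 genes and means of at least 100 TPM by 1198 genes. Only 165 genes had a mean of 1000 TPM or more, and they held 52.9% ± 2.03 (SD, n = 3) of all transcripts. The smallest number of genes that made up 50% of the transcripts was 142 in culture 1, 120 in culture 2 and 151 in culture 3. At the other end, 4914 genes lay between 1 and 10 TPM and together held 2.18% ± 0.23 (SD, n = 3).

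**Figure D1:**
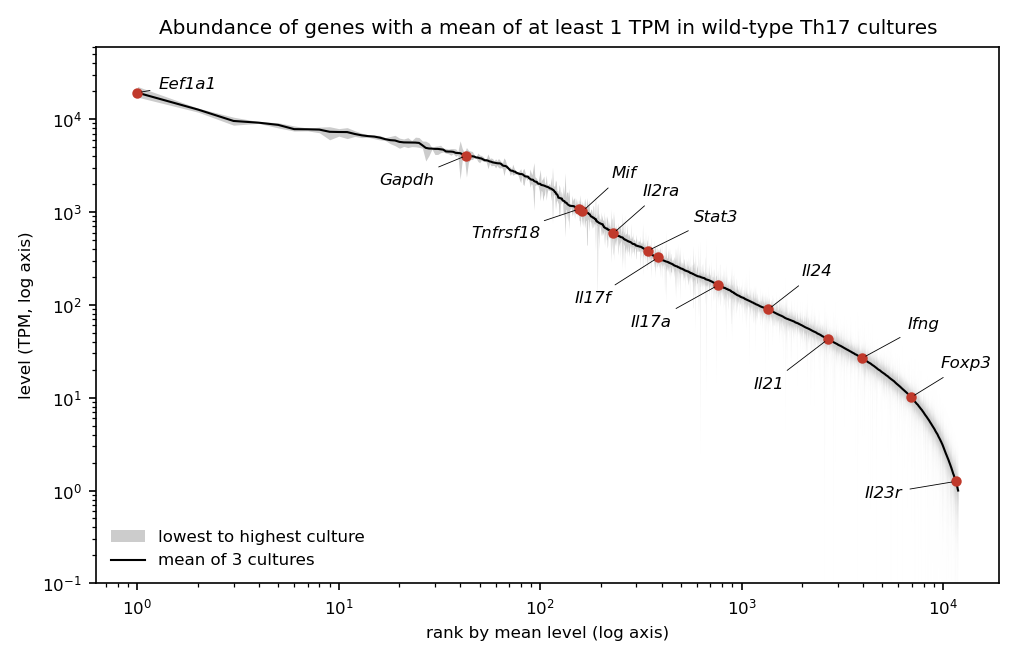
Mean level (TPM, log axis) of each gene against its rank (log axis), for the 11877 genes with a mean of at least 1 TPM. The black line is the mean of the 3 wild-type cultures, the grey band runs from the lowest to the highest culture, and red points mark named genes. Il17f lies at rank 385, Il17a at rank 766, Il24 at rank 1355 (2222 without culture 2) and Il23r at rank 11556.

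The most abundant transcripts were those of the translation machinery. Eef1a1, which encodes the elongation factor that brings aminoacyl-tRNA to the ribosome, led the list with 17314, 18104 and 22546 TPM in cultures 1, 2 and 3. Its 3 values lay above all 3 values of Rpl13a, a large-subunit ribosomal protein gene at 12705 TPM ± 679 (SD, n = 3). Rpl41, Tpt1, Rps19, Rpl32 and Tmsb4x followed among named genes, with means from 9581 TPM for Rpl41 to 7325 TPM for Tmsb4x, which encodes the actin-binding peptide thymosin β4. The mitochondrial gene mt-Co1, a subunit of cytochrome c oxidase, was at rank 10 with 7285 TPM ± 675. Of the 100 most abundant genes, 51 encoded ribosomal proteins, 20 were pseudogenes and 4 belonged to the mitochondrial genome. The 89 ribosomal protein genes held 24.3% ± 1.23 (SD, n = 3) of the transcripts, pseudogenes 12.8% ± 0.48 and the mitochondrial genome 2.41% ± 0.27.

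Some of these levels rest on transcripts that the annotation does not call protein-coding. When protein-coding transcripts alone entered the TPM, Tpt1 went from 9179 to 80.5 TPM, Rpl13a from 12705 to 190 TPM and Eef1b2 from 3003 to 103 TPM. Eef1a1 stayed at 17824 TPM and Rps19 at 7956 TPM. Retained-intron transcripts held 7.46% ± 0.16 (SD, n = 3) of all transcripts. Gas5, a long noncoding host of small nucleolar RNAs, stood at 2402 TPM ± 84.9.

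Below the translation genes came glycolytic enzymes, the actin cytoskeleton and surface proteins of T cells. Gapdh was at 2380, 4847 and 4962 TPM, so culture 1 was low. Aldoa, Eno1, Pgk1, Ldha and Pkm had means from 2483 TPM for Aldoa to 1791 TPM for Pkm. Actg1 and Actb, the cytoplasmic actins, had means of 2018 and 1775 TPM and ratios of highest to lowest culture of 1.22 and 1.12. Vim, which encodes the intermediate filament vimentin, was at 757, 3032 and 1433 TPM, highest in culture 2. B2m, the light chain of MHC class I, was at 2924, 2087 and 1681 TPM.

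T cell identity genes were abundant. All 20 listed genes had means of at least 10 TPM, 16 of them of at least 100 TPM. None of the 20 passed the 2-fold ratio, where 22.4% of all genes did. Among genes with a mean of at least 10 TPM, 13.9% did. The median ratio of the 20 was 1.36, beside 1.498 of all genes and 1.32 of genes at 100 TPM or more. Of the 20, 13 were highest in culture 1, where 37.3% of all genes were. The T cell receptor constant genes Trbc2, Trbc1 and Trac had means of 1162, 1142 and 1130 TPM. Cd3g, Cd3d and Cd3e, the CD3 chains of the receptor complex, had means of 616, 480 and 169 TPM. Cd4, the coreceptor used for selection, was at 220, 203 and 229 TPM.

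The cultures carried the markers of Th17 cells in each library. Il17f was at 399.7, 285 and 288 TPM, Il17a at 171, 200.1 and 119.96 TPM, and Il24 at 25.6, 158 and 84.5 TPM. Il17f and Il17a lie on chromosome 1 at 20777151 to 20784270 and at 20730905 to 20734496, and Il24 on chromosome 1 at 130882074 to 130887454 (GRCm38). Il17f was above Il17a in each culture, with no overlap of the 3 values, and the mean log2 ratio was 1.00 ± 0.43 (SD, n = 3). Il24 overlapped Il17a and spread more: its ratio of highest to lowest culture was 6.15, against 1.40 for Il17f and 1.67 for Il17a. Culture 1 was the low one for Il24, and without it the mean was 121 TPM and the ratio 1.87. All 3 genes had a single transcript of at least 300 nt in the table that carried the reads.

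Among all 39 T cell cytokine genes listed, 30 had a mean of at least 1 TPM and 18 of at least 10 TPM. Mif, a widely expressed cytokine of many tissues, stood at the top with 1018 TPM ± 138 (SD, n = 3), and all its values lay above those of Il17f. All values of Il17f lay in turn above those of Ltb. Ltb, Il17a, Lta and Tgfb1 followed with means of 217, 164, 140.2 and 123 TPM, and neighbours in this stretch overlapped. Ltb and Lta encode the lymphotoxin chains, and Lta was low in culture 1 at 64.7 TPM against 211 and 145 TPM. Tgfb1, the gene of TGF-β1, was the steadiest of them at 124, 123 and 121 TPM.

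Il21 and Il10, which STAT3 is known to induce in T cells, came next to each other with means of 42.8 TPM each. Il21 was at 33.5, 30.7 and 64.2 TPM and Il10 at 16.2, 34.8 and 77.4 TPM. Both were highest in culture 3. Lif, Tgfb3 and Tnf had means of 35.4, 28.3 and 26.8 TPM. Il16 stood at 56.8 TPM over all its transcripts but at 0.19 TPM over its protein-coding ones.

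Among cytokine genes with a mean of at least 5 TPM, Il9, Ifng, Il22 and Il24 had the largest ratios of highest to lowest culture. Ifng, the Th1 cytokine, was at 61.9, 14.3 and 3.91 TPM, a ratio of 15.5. Il22, an IL-10 family cytokine that acts on epithelia, was at 40.7, 6.49 and 15.8 TPM. Il9, the gene of a mast cell and helper cell growth factor, was at 0.285, 21.3 and 6.14 TPM. Ifng and Il22 were thus high in culture 1 and Il9 in culture 2. Without culture 1 the mean of Ifng was 9.09 TPM, and without culture 2 that of Il9 was 3.21 TPM. The cell type genes that moved with these cultures are given below, and their part in these values was not tested.

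Of the cytokine genes, 9 had means under 1 TPM. Il2, the T cell growth factor, was at 0.881, 0.261 and 0.749 TPM. The Th2 cytokine genes Il4 and Il5 had means of 0.27 and 0.23 TPM, and both were at 0 in culture 1. Csf2, the gene of GM-CSF, was at 2.19, 2.04 and 2.69 TPM. Over the 30 cytokine genes with a mean of at least 1 TPM, 15 passed the 2-fold ratio, which is 50% beside 22.4% of all genes.

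**Figure D2:**
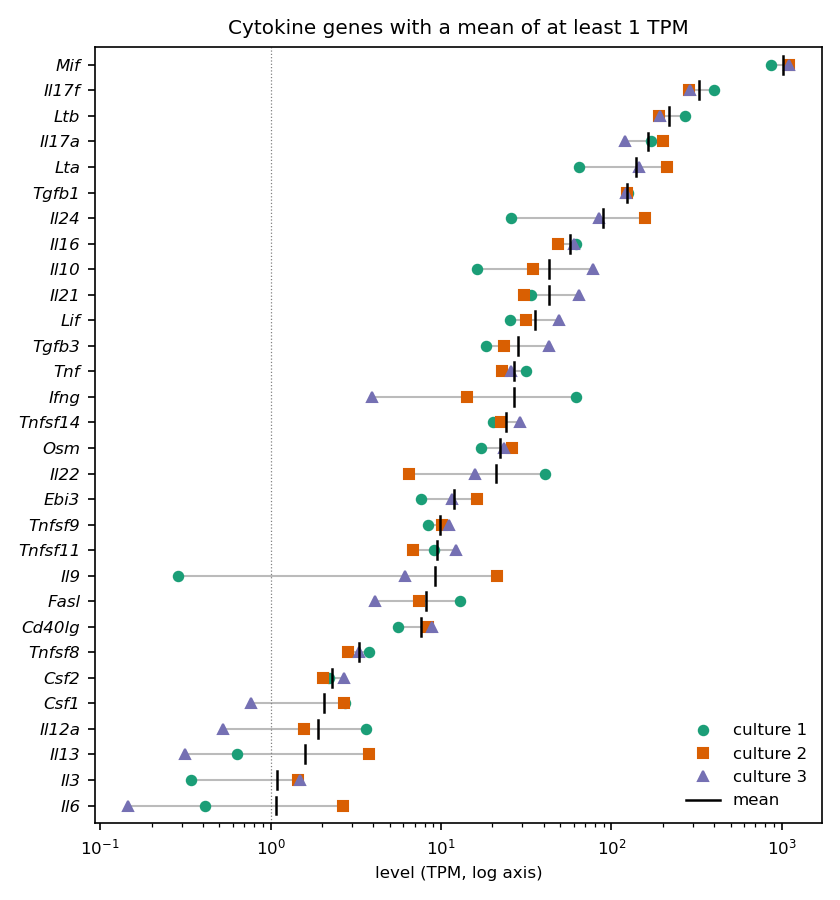
Level (TPM, log axis) of the 30 cytokine genes with a mean of at least 1 TPM in each wild-type culture. Symbols are the cultures, the black bar is their mean, the grey line is the range and the dotted line marks 1 TPM. Il17f lies above Il17a in each culture, while Il24, Ifng, Il22 and Il9 spread widely.

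The starts of Il17f and Il17a are printed because these genes define the cultures and both hold TATAAA close to the start. The sequences are from RefSeq on GRCm38.p6 and run from 250 bases before the start of transcription to 24 bases after the first base. Capitals mark TATAAA between 40 and 20 bases before the start on the gene's strand, AGGTCA on either strand (TGACCT where it is on the other) and TGANTCA on either strand. Il17f is chr1:20784246-20784520 on the minus strand and Il17a is chr1:20730655-20730929 on the plus strand.
Il17f: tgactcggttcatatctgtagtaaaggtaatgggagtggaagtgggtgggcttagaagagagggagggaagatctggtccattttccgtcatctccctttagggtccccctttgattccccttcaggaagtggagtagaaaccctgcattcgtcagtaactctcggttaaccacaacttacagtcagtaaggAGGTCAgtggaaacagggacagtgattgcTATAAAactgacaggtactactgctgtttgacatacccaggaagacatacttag
Il17a: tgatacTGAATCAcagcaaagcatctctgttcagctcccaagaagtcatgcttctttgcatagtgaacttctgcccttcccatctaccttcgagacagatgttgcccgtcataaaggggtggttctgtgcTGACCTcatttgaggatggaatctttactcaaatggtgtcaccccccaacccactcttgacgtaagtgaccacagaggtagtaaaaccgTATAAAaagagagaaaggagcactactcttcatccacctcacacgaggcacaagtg
TATAAA begins at -29 in Il17f and at -31 in Il17a, counted from the start base at 0. AGGTCA begins at -58 in Il17f, and its reverse complement at -120 in Il17a, where TGANTCA begins at -244. RefSeq promoters were matched for 24 of the 30 cytokine genes with a mean of at least 1 TPM, and 5 of them, or 20.8%, had TATAAA in that window. The 5 were Il17a, Il17f, Ifng, Tnf and Il13. Over the 8656 protein-coding genes with a mean of at least 1 TPM that had a promoter in the table, 80.2% of 10793, the share was 0.982%, and 1.87% over all 32851 promoters of the table. TGANTCA was in the promoters of 5 of the 24 cytokine genes, against 4.82% of the matched genes and 7.81% of the table. AGGTCA was in 4 of the 24, or 16.7%, close to 12.1% of the matched genes and 16.3% of the table. A match describes letters and is not evidence of a bound site.

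The same TATAAA position is shown in the cytokine genes Ifng and Tnf and in S100a8, a myeloid gene that was high in culture 2. These windows run from 45 bases before the start to 24 after its first base. Ifng is chr10:118441001-118441070 on the plus strand, Tnf is chr17:35201983-35202052 on the minus strand and S100a8 is chr3:90669026-90669095 on the plus strand, with TATAAA in capitals.
Ifng: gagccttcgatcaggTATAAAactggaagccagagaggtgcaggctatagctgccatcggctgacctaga
Tnf: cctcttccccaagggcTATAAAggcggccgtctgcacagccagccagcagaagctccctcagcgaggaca
S100a8: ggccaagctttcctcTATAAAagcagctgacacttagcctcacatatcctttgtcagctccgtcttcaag
TATAAA begins at -30 in Ifng, at -29 in Tnf and at -30 in S100a8. These windows were chosen because they hold it. Those of S100a9, Xcl1, Il9 and Il22 held none there, with ratios of highest to lowest culture of 43.9, 51.5, 55.6 and 6.19. Tnf, which holds it, had a ratio of 1.38. Of all genes with a mean of at least 10 TPM, with or without a matched promoter, 13.9% passed the 2-fold ratio. Among those with a matched promoter, 19 of 55 genes with TATAAA in this window did, or 34.5%. Of those without it, 649 of 5314 did, or 12.2%. The median ratio was 1.70 with TATAAA and 1.39 without it.

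Receptor genes for IL-2 family cytokines were the most abundant of the 43 receptor chains listed. Il2ra, the α chain of the IL-2 receptor and an activation marker, was at 343, 589.9 and 834 TPM. Il2rg, the common γ chain, was at 523, 368 and 330 TPM, so that it lay above Il2ra in culture 1 and below it in the others. Il2rb had a mean of 250 TPM ± 91.8 (SD, n = 3). Next came Ifngr1 at 237 TPM, whose values lay all above those of Il21r, and Il4ra at 137 TPM, whose values lay all above those of Ifnar2.

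The receptors for the cytokines added to the medium were lower. Il12rb1, which pairs with Il23r for IL-23 and with Il12rb2 for IL-12, was at 35.3, 35.7 and 47.4 TPM. Il23r itself was at 2.00, 0.62 and 1.14 TPM, close to the 1 TPM used for expression. Il12rb2 was at 91.0, 44.0 and 77.7 TPM, so that the IL-12 chain exceeded Il23r 45.4-fold in culture 1, 70.9-fold in culture 2 and 68.0-fold in culture 3. For IL-6, Il6ra had a mean of 9.41 TPM ± 5.63 (SD, n = 3) and Il6st, the signalling chain gp130, of 8.57 TPM ± 3.73, with the highest value of both in culture 3. For TGF-β, Tgfbr2 was at 37.9 TPM ± 12.4 and Tgfbr1 at 5.43 TPM ± 2.39, with no overlap.

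The receptor for IL-17A itself was represented by 1 of its chains. Il17ra was at 54.8, 50.4 and 63.4 TPM. Il17rc, the other chain of the IL-17A and IL-17F receptor, was at 0.492, 0.459 and 0.167 TPM. The IL-24 receptor chains Il20rb, Il20ra and Il22ra1 were at 1.01, 0.11 and 0 TPM on average, and over protein-coding transcripts alone Il20rb was at 0.25 TPM. In total 8 of the 43 receptor genes had means under 1 TPM. Il1r2, the decoy receptor for IL-1, was at 37.5, 64.7 and 30.1 TPM and Il1r1, the signalling receptor, at 3.38, 3.26 and 4.56 TPM.

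The kinases and feedback inhibitors below these receptors were all expressed. Socs3, the inhibitor that IL-6 induces, led with 197, 197 and 274 TPM. Jak3, which binds the common γ chain, had a mean of 149.9 TPM, and Cish, induced by STAT5, of 121 TPM. Jak2, Jak1 and Tyk2 followed with 92.6, 83.8 and 16.5 TPM. None of the 12 listed genes passed the 2-fold ratio, where 22.4% of all genes did, but their median ratio of 1.75 was above the 1.498 of all genes. Socs1 was at 36.0 TPM, and Socs3 exceeded it in each culture.

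Stat3, the factor that IL-6 and IL-23 activate, was the most abundant of the 81 transcription factor genes listed. It was at 304, 264 and 578 TPM, high in culture 3. Stat3 includes short retained-intron transcripts, and the main coding transcript held 52.9% ± 4.62 (SD, n = 3) of its level. Over protein-coding transcripts alone Stat3 was at 299 TPM and Bhlhe40, a repressor of Il10, at 409 TPM, so that the order of these genes turned. Crem, Satb1, Xbp1, Atf4 and Hif1a followed with means from 264 to 201 TPM, and neighbours overlapped. In all, 19 of the 81 factors had a mean of at least 100 TPM, 60 of at least 10 TPM and 3 under 1 TPM.

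The pioneer and lineage factors of Th17 cells spanned a wide range. Irf4 and Batf, which open Th17 genes together, were at 148, 127 and 281 TPM and at 122, 104 and 123 TPM. Maf, a factor that acts on Il21 and Il10, was at 59.0, 50.2 and 83.2 TPM, and Runx3 at 54.1 TPM on average. Rora, a nuclear receptor gene, was at 8.86, 9.14 and 29.1 TPM, and Ahr, the aryl hydrocarbon receptor, at 12.7, 13.4 and 33.7 TPM. Rora and Ahr were both highest in culture 3, which was also high in long transcripts. The Ahr transcript that led is 5548 nt long and that of Rora 10878 nt. The shorter transcript Rora-002, of 2591 nt, was also highest in culture 3, at 0.294, 0.343 and 8.64 TPM. The part of length in these values was not tested.

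Foxp3, Tbx21, Gata3 and Bcl6, factors of other helper lineages, were lower than Stat3, Irf4, Batf and Maf in every culture. Foxp3, the factor of regulatory T cells, was at 4.96, 14.6 and 10.8 TPM. Tbx21, the Th1 factor T-bet, was at 17.5, 3.73 and 3.41 TPM. Gata3, the Th2 factor, was at 2.11, 1.96 and 1.24 TPM. Tbx21 was high in culture 1, and its values in the other cultures nearly coincided. In culture 1 Tbx21 and Bcl6, and in culture 2 Foxp3, were above both Rora and Ahr. Bcl6, the factor of follicular helper cells, was at 19.5, 3.64 and 6.20 TPM, and Tcf7, a factor of naive and memory T cells, at 273, 107 and 104 TPM, both high in culture 1.

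**Figure D3:**
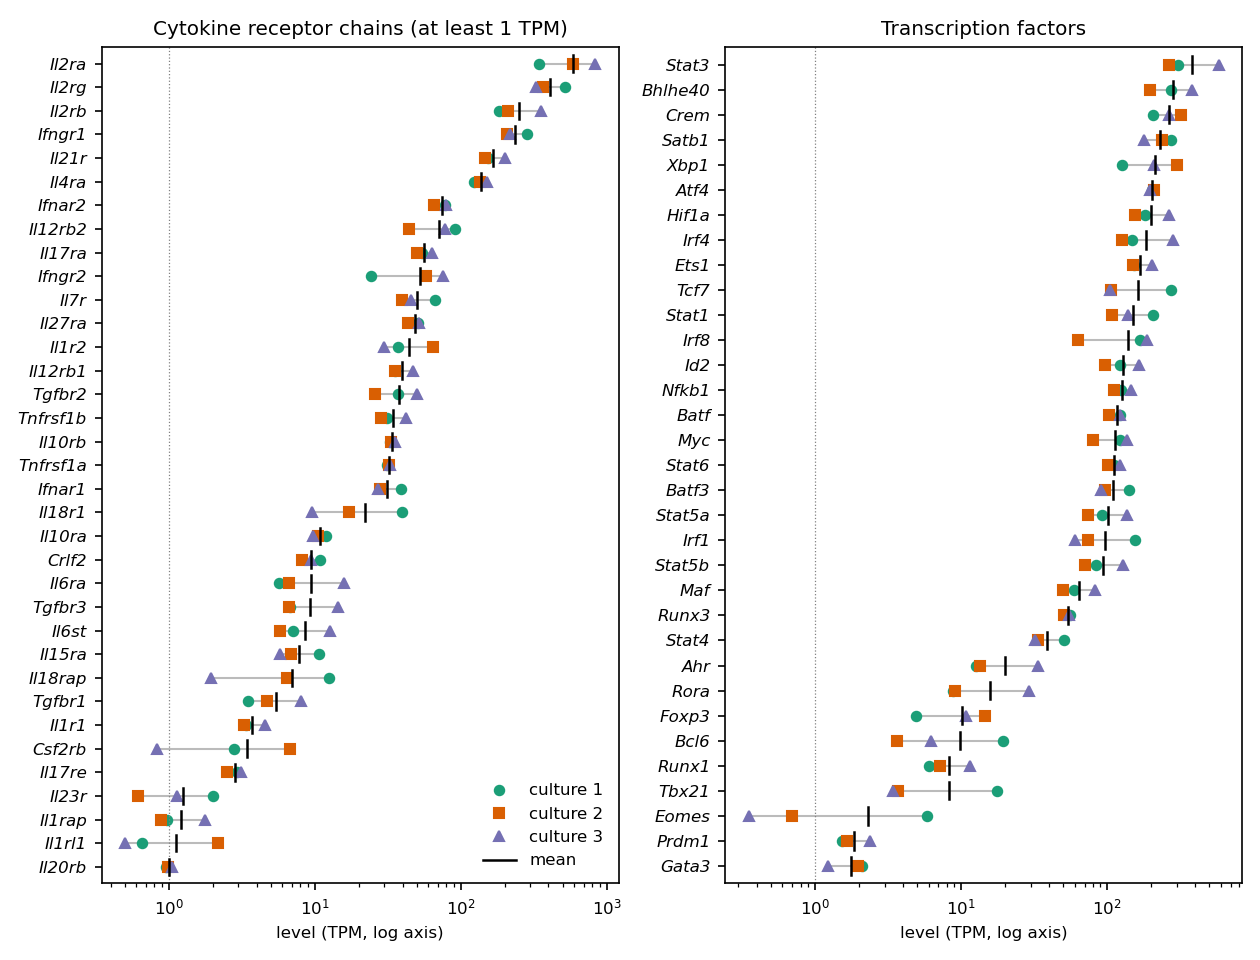
Level (TPM, log axis) in each wild-type culture of the 35 cytokine receptor chains with a mean of at least 1 TPM (left) and of transcription factors of helper T cells (right: the 20 with the highest means, then named lineage factors). Symbols are the cultures, the black bar is their mean and the grey line is the range. Il2ra and Stat3 have the highest means, and Il23r and Gata3 lie near 1 TPM.

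Genes of activation and of inhibitory receptors were among the most abundant surface genes. Tnfrsf18, which encodes GITR, was at 806, 1377 and 1054 TPM. Tnfrsf9, which encodes 4-1BB, was at 672, 909 and 1412 TPM, and Ctla4, an inhibitory receptor, at 865, 839 and 1217 TPM. All values of Ctla4 lay above those of Il2ra. Tnfrsf4, or OX40, had a mean of 553 TPM. Ctla4 exceeded Foxp3 175-fold in culture 1, 57.6-fold in culture 2 and 113-fold in culture 3. Of the 23 activation genes, 12 passed the 2-fold ratio, or 52.2% beside 22.4% of all genes, among them Lag3, an inhibitory receptor, at 423, 112 and 210 TPM and Pdcd1, which encodes PD-1, at 44.98, 18.3 and 24.4 TPM.

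Ccr7 and Cxcr4 led the chemokine receptors. Ccr7, the lymph node homing receptor, had a mean of 421 TPM ± 89.0 (SD, n = 3), and all its values lay above those of Cxcr4, at 96.9, 113 and 275 TPM. Ccr6, the receptor linked to Th17 cells, was at 11.1, 8.86 and 16.4 TPM, and its ligand gene Ccl20 at 3.42, 3.62 and 9.29 TPM. Ccr7 exceeded Ccr6 between 28.8-fold and 42.4-fold. Ccr4 was at 23.2, 62.4 and 85.5 TPM.

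Genes of cell division were expressed throughout. All 30 listed cell cycle genes had a mean of at least 1 TPM and 28 of at least 10 TPM. Cdk4, Ccnd3 and Pcna had means of 342, 338 and 211 TPM, and Cdk4 stood at 137 TPM over protein-coding transcripts alone. Mki67, the proliferation marker, was at 18.5, 37.8 and 27.5 TPM and Cdk1, the mitotic kinase, at 48.2, 101 and 75.2 TPM, both low in culture 1. Of the 30 genes, 9 passed the 2-fold ratio, or 30.0% beside 22.4% of all genes. Promoters were matched for 26 of the 30, and CCAAT on either strand was in 19 of them, or 73.1%, against 39.4% of the matched genes and 37.4% of the table.

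Granule genes ranged from among the most abundant to near 1 TPM. Gzma, the gene of the serine protease granzyme A, was at 1617, 1050 and 1114 TPM, above Il17a in each culture. Gzmb, the gene of granzyme B, was at 981, 379.95 and 243 TPM. Perforin, encoded by Prf1, was at 67.0, 11.5 and 15.4 TPM. The 8 granzyme genes listed and Prf1 were all highest in culture 1, where 37.3% of all genes were. Of all 13 granule genes with a mean of at least 1 TPM, 10 were highest in culture 1, 1 in culture 2 and 2 in culture 3. Only 11 granule genes reached that mean without culture 1, so the filter itself can raise the count of culture 1. Of 13 granule genes with a mean of at least 1 TPM, 9 passed the 2-fold ratio with all 3 cultures, beside 22.4% of all genes. Without culture 1, 1 of 11 did, close to the 11.9% of all genes. Serglycin, the granule proteoglycan encoded by Srgn, was steady at 1070, 820.2 and 1079 TPM.

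Genes of CD8 T cells and Th1 cells were high in culture 1. Cd8a, the coreceptor of cytotoxic T cells, was at 103, 17.2 and 14.1 TPM, and Cd8b1 at 146, 34.6 and 34.6 TPM. The ratio of Cd4 to Cd8a was 2.14 in culture 1, 11.8 in culture 2 and 16.3 in culture 3. All 10 listed CD8 genes and all 11 Th1 genes with a mean of at least 1 TPM were highest in culture 1, where 37.3% of all genes were. Of the 10 CD8 genes 9 passed the 2-fold ratio, beside 22.4% of all genes, and without culture 1 none of 8 did, beside 11.9% of all genes. In counts added after seeing the data, the CD8 list shared 4 members with the granule list, and the other 6 genes were all highest in culture 1 and all passed the ratio. The Th1 list shared Gzmb and Nkg7 with these lists, and its 9 other genes with a mean of at least 1 TPM were all highest in culture 1. The chemokine gene Xcl1, made by activated CD8 and NK cells, was at 110, 2.04 and 4.48 TPM, and Ccl4 and Ccl5 were highest in culture 1 at 151 and 107 TPM. In bulk RNA, more cells of a type and more RNA per cell cannot be told apart.

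B cell and MHC class II genes were also high in culture 1. The summed level of the 13 listed B cell genes was 1075, 661 and 584 TPM, of which Igkc, the immunoglobulin κ constant gene, held 494, 418 and 360 TPM. Cd79a, a chain of the B cell receptor, was at 44.2, 14.9 and 12.6 TPM, high in culture 1. Of the 12 with a mean of at least 1 TPM, 11 were highest in culture 1, where 37.3% of all genes were. Without culture 1, 10 of the B cell genes reached that mean, so the filter itself can raise this count. Cd74, the invariant chain of MHC class II, was at 278, 128 and 40.5 TPM. Of the 10 listed MHC class II genes, 9 had a mean of at least 1 TPM, and all 9 were highest in culture 1. Without culture 1, 5 of 9 MHC class II genes still passed the 2-fold ratio, beside 11.9% of all genes. Cultures 2 and 3 thus differed in them too. Of the B cell genes, 2 of 10 passed without culture 1. Of the 13 interferon-stimulated genes with a mean of at least 1 TPM, 11 were, among them Gbp2, a guanylate-binding protein gene, at 407, 115 and 263 TPM. The part of these cells in the values of Ifng, Gzmb and Il22 was not tested.

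Culture 2 was marked by myeloid genes. S100a9 was at 11.9, 525 and 29.2 TPM and S100a8 at 14.2, 457 and 32.7 TPM, and both encode the subunits of calprotectin, a protein of neutrophils. Lyz2, the lysozyme gene of macrophages and neutrophils, was at 14.8, 51.5 and 2.09 TPM. Mcpt1, a mast cell protease gene, was at 0.466, 36.9 and 0.094 TPM, and Chi3l3 at 4.51, 198 and 14.5 TPM. The 15 listed myeloid genes summed to 214, 1185 and 139 TPM, and 11 of them had a mean of at least 1 TPM. All 11 passed the 2-fold ratio, beside 22.4% of all genes. Genes that reach 1 TPM only through 1 high culture have a large ratio by that filter, and this count holds some. Without culture 2, 9 myeloid genes had that mean and all 9 passed, beside 13.9% of all genes. The count was 7 of 10 without culture 1 and 6 of 12 without culture 3, beside 11.9% and 11.6% of all genes. Of the 11, 6 were highest in culture 2 and 5 in culture 1, beside 16.2% and 37.3% of all genes. Emr1, the gene of the macrophage antigen F4/80, was at 0, 0.089 and 0 TPM and Lyz1 at 0 in all. Of the 30 cytokine genes with a mean of at least 1 TPM, 9 had their highest value in culture 2, beside 16.2% of all genes. Il9, Il13, Il6 and Il24 were among them, and so were Il17a, Mif and Lta. Il13 was at 0.637, 3.80 and 0.316 TPM and Il6 at 0.410, 2.66 and 0.145 TPM. Both reached a mean of 1 TPM only through culture 2, so the filter fixed their place in this count. The part of myeloid cells in these values was not tested.

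Lists for other cells held both high and undetected members. The 10 listed NK genes summed to 2148, 1304 and 1262 TPM, and 7 of them had a mean of at least 1 TPM. Gzma and Prf1 among them are also granule genes. Klrd1, a receptor chain of NK and CD8 T cells, was at 333, 141 and 100.4 TPM and Klrk1, which encodes NKG2D, at 80.5, 22.7 and 16.2 TPM, both high in culture 1. The NK genes Ncr1 and Klrb1c had means of 0.16 and 0.29 TPM. Of the 9 dendritic cell genes 5 had a mean of at least 1 TPM, led by Irf8 with 139.5 TPM and Bst2 with 103 TPM, which other cells also express. Clec9a, a receptor of dendritic cells, had a mean of 0.048 TPM, and Cd209a was at 0 in each library. Of the 8 erythroid and platelet genes 2 had a mean of at least 1 TPM, and Gp9 was at 0. Pf4, a platelet gene, was at 0.567, 8.04 and 0 TPM. The T cell receptor γ constant genes Tcrg-C4, Tcrg-C1 and Tcrg-C2 had means of 47.4, 19.7 and 15.5 TPM, with ratios from 1.26 to 2.00. Over the lists of CD8, NK, γδ T, B, myeloid, dendritic, erythroid and platelet genes, 50 distinct genes had a mean of at least 1 TPM.

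**Figure D4:**
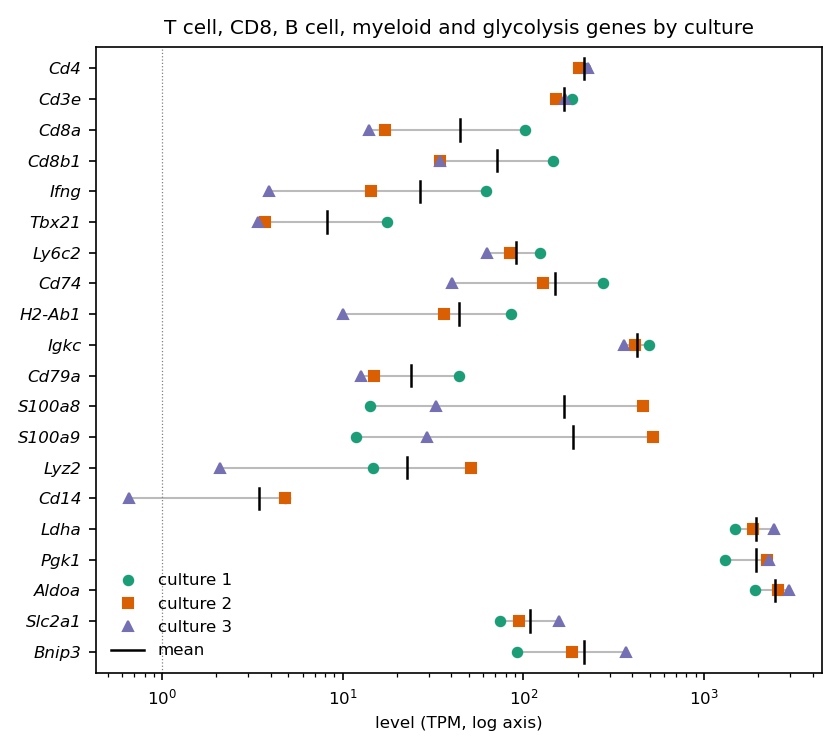
Level (TPM, log axis) of T cell, CD8, Th1, MHC class II, B cell, myeloid and glycolysis genes in each wild-type culture. Symbols are the cultures, the black bar is their mean, the grey line is the range and the dotted line marks 1 TPM. Cd4 and Cd3e coincide among the cultures, Cd8a, Ifng and Cd74 are highest in culture 1, S100a8 and S100a9 in culture 2, and Slc2a1 and Bnip3 in culture 3.

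Glycolysis and hypoxia genes were highest in culture 3 and lowest in culture 1 by their sum. The 22 listed genes summed to 13739, 19803 and 24760 TPM, and 21 of them were highest in culture 3, where 46.5% of all genes were. The count was 18 of 22 with TMM-scaled levels and with protein-coding transcripts alone. Slc2a3, a glucose transporter gene, was at 103, 145 and 633 TPM. Bnip3, a HIF-1 target of mitophagy, was at 92.1, 187 and 372 TPM, and Egln3, a prolyl hydroxylase that limits HIF, at 128, 289 and 478 TPM. Pdk1, which holds pyruvate out of the mitochondrion, was at 63.8, 88.1 and 197 TPM over all transcripts and at 13.4, 20.4 and 20.2 TPM over protein-coding ones. Hif1a was at 183, 154 and 265 TPM.

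Genes outside these lists were also highest in culture 3. Ndrg1, a stress-response gene, was at 41.6, 98.4 and 272 TPM, and Plod2, a collagen lysyl hydroxylase gene, at 11.2, 32.8 and 74.6 TPM. Gatm, an enzyme of creatine synthesis, was at 73.7, 73.8 and 462 TPM. Tgm2, the tissue transglutaminase gene, was at 52.5, 208 and 366 TPM. These 4 genes were named after their values were seen. Among the 10 most variable genes of culture 3, Gja5, a gap junction gene, was at 1.09, 26.9 and 39.6 TPM and Tgm1, a second transglutaminase gene, at 0.463, 14.7 and 15.04 TPM, low in culture 1 alone.

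**Figure D5:**
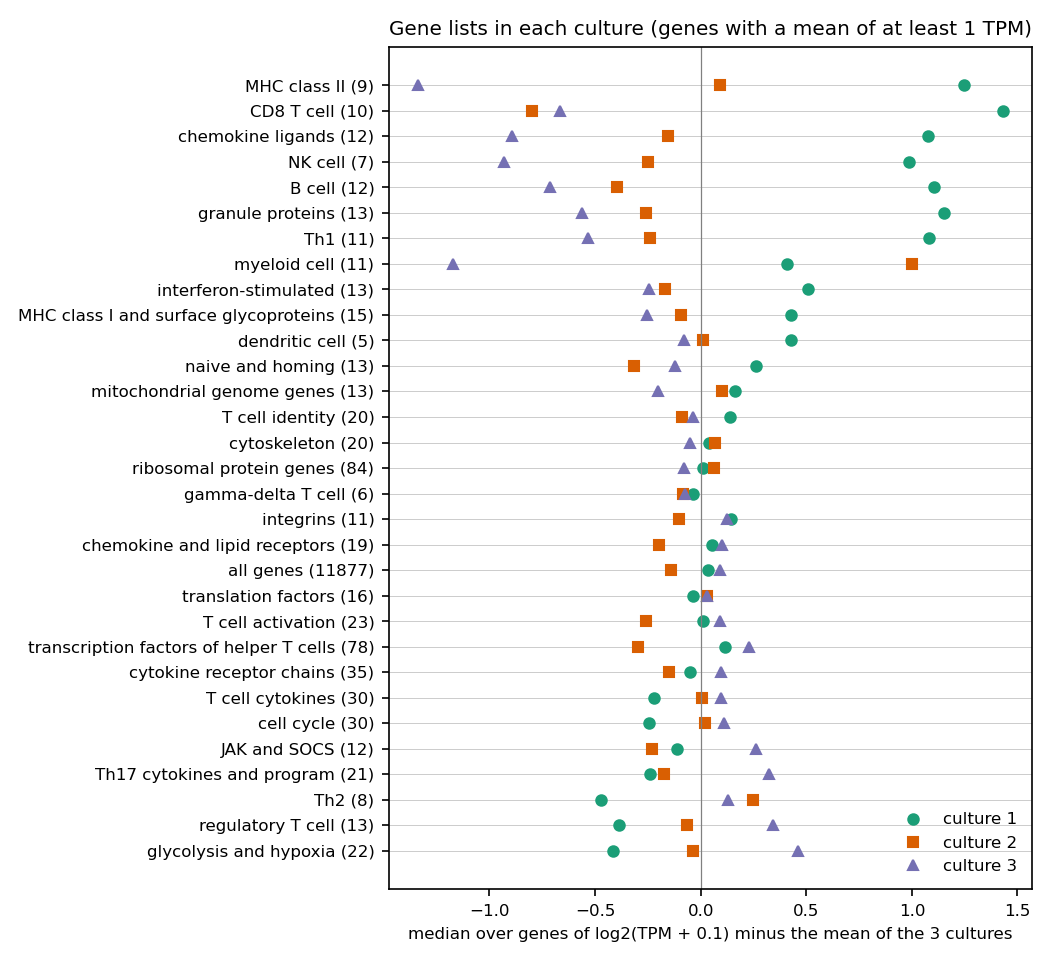
Median, over the genes of each list with a mean of at least 1 TPM (their number in brackets), of log2(TPM + 0.1) in a culture minus the mean of the 3 cultures. Symbols are the cultures. Culture 1 lies highest for MHC class II, CD8 T cell, B cell and Th1 genes, culture 2 for myeloid genes and culture 3 for glycolysis genes, while all genes together lie at 0.04, -0.14 and 0.09.

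The Th17 program genes spread more than T cell identity genes. Of 21 listed genes, 13 passed the 2-fold ratio, or 61.9% beside 22.4% of all genes, and the median ratio was 2.21. Of these 21, 12 were highest in culture 3, close to the share of 46.5% of all genes. Without culture 1 the count was 11 of 20, beside 11.9% of all genes. It was 7 of 21 without culture 2 and without culture 3, beside 13.9% and 11.6% of all genes. Batf, Il17f and Il17a were among those that did not pass.

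The steadiest abundant genes, chosen by their ratio among means of at least 100 TPM and named here by the rule, differed by a few percent among the cultures. Coro1b, an actin-binding protein gene, was at 260.4, 262 and 260.4 TPM. Hdac7, a histone deacetylase gene, was at 233, 234 and 233 TPM, and Ube2m, an enzyme of neddylation, at 178, 180.2 and 181 TPM. Vps29, Eif3i, Psma2, Eif3m, Rpl34 and the pseudogene Tpt1-ps3 also had ratios of at most 1.03. None of the 16 translation factors listed passed the 2-fold ratio, where 22.4% of all genes did. Among genes with a mean of at least 10 TPM, 13.9% did, and all 16 had means of at least 100 TPM. Their median ratio was 1.14, beside 1.32 of genes at 100 TPM or more.

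The tracts at the start of 2 abundant translation genes are shown because transcripts of this machinery are known for a 5′ pyrimidine tract. The windows are from RefSeq on GRCm38.p6, with capitals for a C followed by at least 4 pyrimidines that begins within 5 bases of the start. Eef1a1 is chr9:78481700-78481769 and Rpl13a is chr7:45128721-45128790, both on the minus strand.
Eef1a1: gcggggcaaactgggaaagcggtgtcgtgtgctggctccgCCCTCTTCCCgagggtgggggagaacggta
Rpl13a: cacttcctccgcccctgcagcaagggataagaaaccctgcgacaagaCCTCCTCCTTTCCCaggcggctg
The tract begins at -5 in Eef1a1 and is 10 bases long, and it begins at 2 in Rpl13a and is 14 bases long. The windows of Tpt1, Rpl41 and Rps19 held no such tract. It was present in 20.3% of the promoters of matched genes and in 18.3% of the table. For the ribosomal protein genes as a set the check is void, because 61 of 83, or 73.5%, had a promoter in the table.

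Most protein-coding genes had several annotated transcripts. Of the 10793 protein-coding genes with a mean of at least 1 TPM, 7593 had more than 1 transcript of at least 300 nt, and the leading transcript held a median of 65.0% of the level and over 90% in 20.8% of these genes. The same transcript led in all 3 cultures for 71.2% of them. In 17.7% the leading transcript was not protein-coding. Of Pkm, the transcript Pkm-201 held 91.8% ± 0.80 (SD, n = 3) and Pkm-202 8.21% ± 0.80. Of Irf4, 2 coding transcripts of nearly equal length held 55.6% ± 2.36 and 44.4% ± 2.36. Of Ctla4, the transcript Ctla4-001 held 72.5% ± 8.74 and Ctla4-002, which is 614 nt long, 26.4% ± 8.64.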

How the data were processed

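Polyadenylated RNA was sequenced from 3 wild-type Th17 cultures, per the labels' protocols. The deposited table held an estimated count per transcript and library. The authors also deposited the GC fraction and length of the transcripts, per the file headers. The submitters' processing notes list Bowtie2 2.1.0, eXpress 1.3.1 and GRCm38. The annotation release is not given in the sources used here. Genes and lists were chosen with earlier results of these data known.

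Counts were divided by transcript length, over 93480 transcripts less those under 300 nt, which held 4.07% to 4.85% of the counts. They were scaled to TPM and summed over 38483 genes, with no rounding. Where a gene had no counts, 3 counts (0.0621 to 0.0634 CPM) is the limit that counting error allows. Chi-square per degree of freedom between libraries was 122 to 170, so none counted as a duplicate. Named genes were the 25 most abundant, up to 12 leading members of 29 lists, Il17a, Il17f and Il24, the 10 most variable per culture at 10 TPM or more, the 10 steadiest at 100 TPM or more, and neighbours in the cytokine, receptor and factor orders. Of the list genes 488 were matched and 8 were not. Genes were also described by transcript length. Alternatives covered transcript sets, CPM, length, TMM factors (edgeR 4.0.16 in R 4.3.3), filters, pseudocounts, averages and left-out libraries. Promoters were matched by symbol or synonym, taking the one nearest to the leading transcript's start; 73.9% lay within 100 bases of it. Calculations (Python 3.11.15, numpy 2.4.6, pandas 2.3.3, matplotlib 3.10.9) were tested on simulated data. No column of per-sample values was unmapped. No test was run, since the cultures form 1 group. Some of the genes that the rule names are not reported here.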

Additional observations from a re-analysis of the deposited data

How the results depend on the processing

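The 100 most abundant genes held 43.8% of the transcripts. The share was 52.3% with all transcripts, 41.7% with transcripts of at least 500 nt, 27.7% as CPM, 55.3% with counts over the longest transcript and 46.5% with protein-coding transcripts alone, a setting chosen after seeing the data. The number of genes past the 2-fold ratio, 2657, was 971 among means of at least 10 TPM and 5753 with no filter on the mean, and 1367 to 1651 with 1 culture left out, where fewer libraries are compared. The other 68 values of the counts and orders stayed within 1.5 times or 1 SD of the main value. The mean log2 ratio of Il17f to Il17a ran from 0.87 to 1.25 with 1 culture left out. In the orders of cytokines, receptors and factors, at least 8 of the 10 leading genes were shared with the main order under each setting run, and Mif and Il2ra led throughout. Stat3 led the factors except with transcripts of at least 500 nt, counts over the longest transcript and protein-coding transcripts alone, where Bhlhe40 did. The share of cytokine promoters with TATAAA was 20.8% also between 50 and 15 bases before the start, a window chosen after seeing the data. Across all alternatives the rank of Il17f ran from 260 to 483, of Il17a from 508 to 1041, of Il24 from 917 to 2222 and of Il23r from 10454 to 12083. Of the values for single genes, 150 moved by less than the spread among cultures and 30 were counted as moved. A gene that varies widely among cultures can shift far within that spread, so the 150 do not measure stability. Without culture 1 the rank of Ifng went from 3962 to 7200 and that of Tbx21 from 7532 to 9554. Neither was counted as moved. The 30 include settings in which Eef1a1 kept its rank of 1. Its rank did not vary among cultures, so that an unchanged rank was also counted as moved. No paired analysis was possible because the cultures form 1 group. Levels near 1 TPM, such as those of Il23r, rest on few counts per kilobase beside those of Il17f.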
